A study of Mus musculus with 6 samples.

Results

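The genes described here lie in the distal part of a chromosome 1 segment that MRL mice contributed to the congenic strain B6.MRLc1. Immune receptor and interferon-inducible genes of that span were left out by their names in the array files. Even so, 17 member names lie inside the interferon-inducible Ifi200 cluster, under names that the rule does not list. Members were all non-control array probes placed on chromosome 1 between positions 170000000 and 175893982 of build mm9. Probes whose name in the array files was Nuf2, Ppox, Cd48, Cd84, Cd244, Ly9, Aim2, Mnda, Mndal or Pyhin1, or began with Slamf, Fcgr, Fcer, Fcrl, Ifi20 or Ifi21, were left out. This gave 117 of the 34797 names on the array, measured by 184 of its 55681 probes; a name can be a gene, a long intergenic RNA region or an unnamed transcript. Expression was measured on 6 one-colour arrays of whole testis, 3 from C57BL/6 (B6) males of wild-type genotype and 3 from males of B6.MRLc1-(D1Mit202–D1Mit403). The congenic males carry MRL chromosome 1 from 67.97 to 81.63 cM on the C57BL/6 background. All 6 testis samples came from mice aged 3 months, taken 10 days after the scrotum was heated once to 43 °C for 20 min. The labels do not state whether each array was 1 mouse, although the design text counts 3 of each strain, so the p-values measure the spread between these samples. Unheated testes were not analysed here, so a response to heat cannot be read from these values.

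In a congenic pair, genes of the introgressed segment are carried as MRL alleles in one strain and as B6 alleles in the other, while the rest of the genome is meant to be the same. The MRL strain is known for lupus-like autoimmune disease. The distal end of mouse chromosome 1 holds immune gene clusters, and between them it holds unrelated genes for mitochondrial proteins, phosphatases, ion pumps, sperm components, secreted lipoproteins and odorant receptors. Whole testis RNA comes from germ cells, of which spermatocytes and spermatids are sensitive to heat, and from Sertoli, Leydig, peritubular and blood-derived cells.

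Each array probe is a 60-base oligonucleotide, and a gene can have several. The first 30 bases of 8 probes are printed 5′ to 3′, with no part in capitals, because the strain difference turned on the probe in 3 of these genes and was among the largest in Dusp23 and Spata46. Positions are mm9 positions of the probe in the array annotation, and the stretch given for Tagln2 probe 2 is shorter than its 60 bases. Where the probes lie in exons or untranslated regions was not analysed here. The MRL sequence under the probes was not analysed here either.
Spata46, chr1:172242182-172242241, plus strand: ctgctgacatctcaggtaaatagggatgaa
Adamts4 probe 1, chr1:173189952-173190011, plus strand: cgcatctttgagcattagttttctcatgtg
Adamts4 probe 2, chr1:173190709-173190768, plus strand: aatgagaggaacaggatgtggtctggtatt
B4galt3 probe 1, chr1:173206868-173206927, plus strand: ttattctatttatggttcctaagaagctgt
B4galt3 probe 2, chr1:173206967-173207026, plus strand: gccccggaggggcgggggctgggattttga
Tagln2 probe 1, chr1:174436738-174436797, plus strand: ttgcaagagggcaagaacgtgattgggttg
Tagln2 probe 2, chr1:174437450-174437506, plus strand: gggcttgacgaacacgagtttgctgatttt
Dusp23, chr1:174560901-174560960, minus strand: gtgtcttggtggttttagagtggatattaa

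Levels are given as log2 of the processed signal over the 75th percentile of its array, so a level of 0 is that percentile, and differences are B6.MRLc1 minus B6 on this log2 scale with the standard error (SE) of the limma fit. A probe was tested where 3 or more arrays had over 0.5 of its spots well above background, and called at a Benjamini-Hochberg adjusted p under 0.05 over all 36626 probes tested. That percentile was 558.0 to 666.4 in intensity on the 6 arrays, none of which held a saturated spot. Spots well above background made up 68.5% to 69.0% of B6 arrays and 58.0% to 64.7% of B6.MRLc1 arrays. The scanner's additive error was 2.66 to 3.14 on B6 and 3.38 to 5.68 on B6.MRLc1 arrays. Whether this made dim signals pass less easily in B6.MRLc1 was not tested. Slide row was the same as strain, and the effects of row and strain cannot be told apart. Across the array 87 probes were higher and 578 lower in B6.MRLc1 (301 and 699 with normexp background correction, which pulls dim values together).

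Members differed between the strains in both directions. Of the 121 members tested, 28 were called, 11 of which rose and 17 fell in B6.MRLc1. That is 23.1% of the members, against 1.82% of all probes tested, where 0.238% were called higher and 1.58% lower. Of the lower member calls, 7 lay inside the Ifi200 cluster. The tested members came from 78 names, counted here as genes, of which 9 had a probe that rose, 14 had a probe that fell and 55 had none called. Those that rose include 2 lincRNA regions that overlap each other, and those that fell include 3 that overlap each other. The counts are therefore not of separate loci. The median difference was -0.02 over the tested members and 0.02 over all tested probes. The 3 values of one strain lay wholly above those of the other for 74 members, 36 higher and 38 lower in B6.MRLc1, or 61.2%, against 27.0% of all probes tested. Members just outside the call were close in value to members inside it, for example Dedd at 0.49 (adjusted p = 0.0518) and Apoa2's second probe at 0.34 (adjusted p = 0.0492). For the 22 called probes well above background on all 6 arrays, the fitted fold was 1.27 to 4.74. On the log2 scale these ends are 0.34 for Apoa2's second probe and -2.24 for Dusp23. The uncalled members ranged from -1.40 to 1.31 on that scale, so some differed by more than called members.

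Another 63 members were not tested. Of these, 41 were not well above background on any array and 22 passed on too few arrays. No probe of the 6 odorant receptor genes, of the plasma pentraxins Crp and Apcs, of the calcium store protein Casq1, of the potassium channel subunit Kcnj9 or of the adhesion molecule Cadm3 was bright enough to be tested. Nothing can be said of their levels in this testis beyond that limit. The call set also depended on single arrays. In fits that left out 1 array each, 6 of the 28 calls held in all 6 fits (among them Spata46, Adamts4, B4galt3, Dusp23 and 1 lincRNA probe), and 6 were lost in every one (Pcp4l1, Tomm40l, Pex19, Pigm, 1 of the Apoa2 probes and 1 lincRNA probe). With no filter on dim probes, which raises the number of probes adjusted over, 7 of the 28 calls held and the other 21 had an adjusted p of 0.0539 to 0.108.

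**Figure D1:**
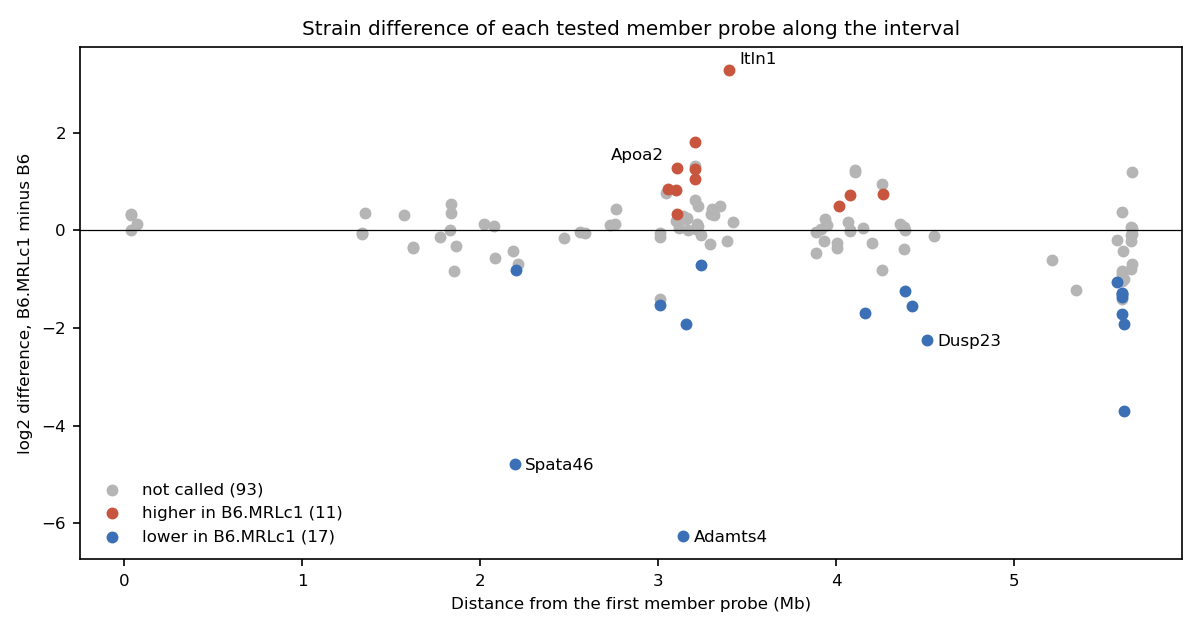
Log2 difference (B6.MRLc1 minus B6) of each of the 121 tested member probes against distance in Mb from the first member probe; red and blue points mark higher (11) and lower (17) calls, grey points were not called (93). No called probe lies proximal of Spata46, red points gather in the middle of the span, and the blue points at the far right lie in the Ifi200 cluster.

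Calls were unevenly placed along the span, as the plot of differences by distance shows. None of the 20 tested probes proximal of Spata46 was called by limma, although 5 had an unadjusted p under 0.05 and 1 was called with normexp, and their differences ran from -0.83 to 0.53. Between the sperm tail gene Cfap126 and the lincRNA region at chr1:173254292-173257445, a stretch picked out after its values were seen, 22 probes were tested, 7 of which rose and 3 fell. At the edges of the span, the last tested gene before it was the retinoid receptor gene Rxrg, whose probes differed by 0.51 and -0.07 (adjusted p = 0.286 and 0.757). The first probes beyond the span, for odorant receptors, were too dim to test.

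Most tested genes of spermatids and of the sperm tail were lower in B6.MRLc1. Of 6 such genes 5 were tested, and 4 of them fell, while none rose; the median over their 7 tested probes was -1.40, against 0.02 over all probes. Spata46, a spermatid protein of the sperm head, has a single probe here. It read -1.05, -1.70 and -2.34 on the B6 arrays and -6.46, -6.86 and -6.14 on the B6.MRLc1 arrays. The groups lay far apart, but no B6.MRLc1 array had Spata46 well above background, so only a bound can be given. It was at least 9.45-fold lower in B6.MRLc1 than the B6 mean. For that bound, B6.MRLc1 values below the lowest signal that passed as well above background on their array were raised to it. The adjusted p was 0.0134 for the fit to the processed signal. It was 0.0314 for the fit with dim values so raised (difference -3.24). Beside each other bound, the first adjusted p is also from the processed signal. With normexp the difference was -1.73.

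Cfap45, an axonemal protein inside the microtubules of cilia and flagella, read -0.84, -1.17 and -1.13 in B6 and -2.88, -2.39 and -2.54 in B6.MRLc1. Every B6 array was above every B6.MRLc1 array, and Cfap45 fell by 1.56 (SE 0.16, adjusted p = 0.0230). Cfap126, which helps position basal bodies of motile cilia, had a pair of probes with nearly equal differences. One read 1.46, 1.61 and 1.50 in B6 against -0.33, 0.53 and -0.19 in B6.MRLc1 and fell by 1.52 (SE 0.23, adjusted p = 0.0450). Its other probe differed by -1.40 (SE 0.23) and just missed the call (adjusted p = 0.0544). Array 2 was the highest of the B6.MRLc1 arrays for both of these genes. Klhdc9, a kelch domain gene listed here for its testis expression, read 0.01, -0.14 and -0.19 in B6 and -0.87, -0.78 and -0.82 in B6.MRLc1. The groups did not overlap, and Klhdc9 fell by 0.71 (SE 0.07, adjusted p = 0.0234).

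The fifth tested gene of the list went the other way. Atp1a4, the sodium pump subunit of the sperm flagellum, had 2 probes that overlap by all but a few bases and so are nearly 1 measurement. They read higher on each B6.MRLc1 array than on any B6 array, with differences of 1.19 and 1.23, but were not called (adjusted p = 0.0857 and 0.0952). The call of Spata46 held whichever array was left out. Cfap45 kept its call when B6 array 3 or B6.MRLc1 array 1 was left out, and its adjusted p was 0.0519 to 0.0823 in the other 4 fits, without B6 arrays 1 or 2 or B6.MRLc1 arrays 2 or 3. Cfap126 held only without B6.MRLc1 array 2, with 0.0853 to 0.148 in the other 5 fits, and Klhdc9 only without B6 array 3, with 0.0608 to 0.0777.

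Spermatid markers encoded elsewhere in the genome were measured beside these genes. Of 10 round spermatid markers 6 fell and none rose (9 at an unadjusted p under 0.05, 6 called with normexp), with a median of -1.58 (-0.49 with normexp). Their summed level, in multiples of the array's 75th percentile, was 3.59 to 4.61 in B6 and 1.84 to 1.91 in B6.MRLc1. Of 10 elongating spermatid markers 1 fell (10 at an unadjusted p under 0.05, 7 called with normexp), their median was -2.68 (-1.73 with normexp), and their summed level was 13.7 to 43.2 in B6 and 1.84 to 6.05 in B6.MRLc1. In each of these lists 1 marker had no B6.MRLc1 array well above background. Spermatocyte markers had 2 of 9 lower (4 at an unadjusted p under 0.05, 2 called with normexp). Their median was -0.09, but they ranged from -3.18 for Ldhc to 0.09 for Meioc. Spermatogonium markers had 1 of 7 lower (2 at an unadjusted p under 0.05, 1 called with normexp), with a median of -0.06. Sertoli (8 tested), Leydig (6), peritubular (5), macrophage (6) and endothelial (5) markers had no calls by limma, with 2, 3, 1, 1 and 2 at an unadjusted p under 0.05. Each of these markers was well above background on arrays of both strains. The lack of a call does not show that their levels were equal. With normexp 1 Leydig marker was called. Red cell markers had 1 of 3 lower (median 0.80), and none of 4 adipocyte markers was called (3 at an unadjusted p under 0.05, 0 with normexp; median 1.06). Fewer spermatids and less RNA in each spermatid cannot be told apart in whole tissue, and the part of either in the members' differences was not tested.

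**Figure D2:**
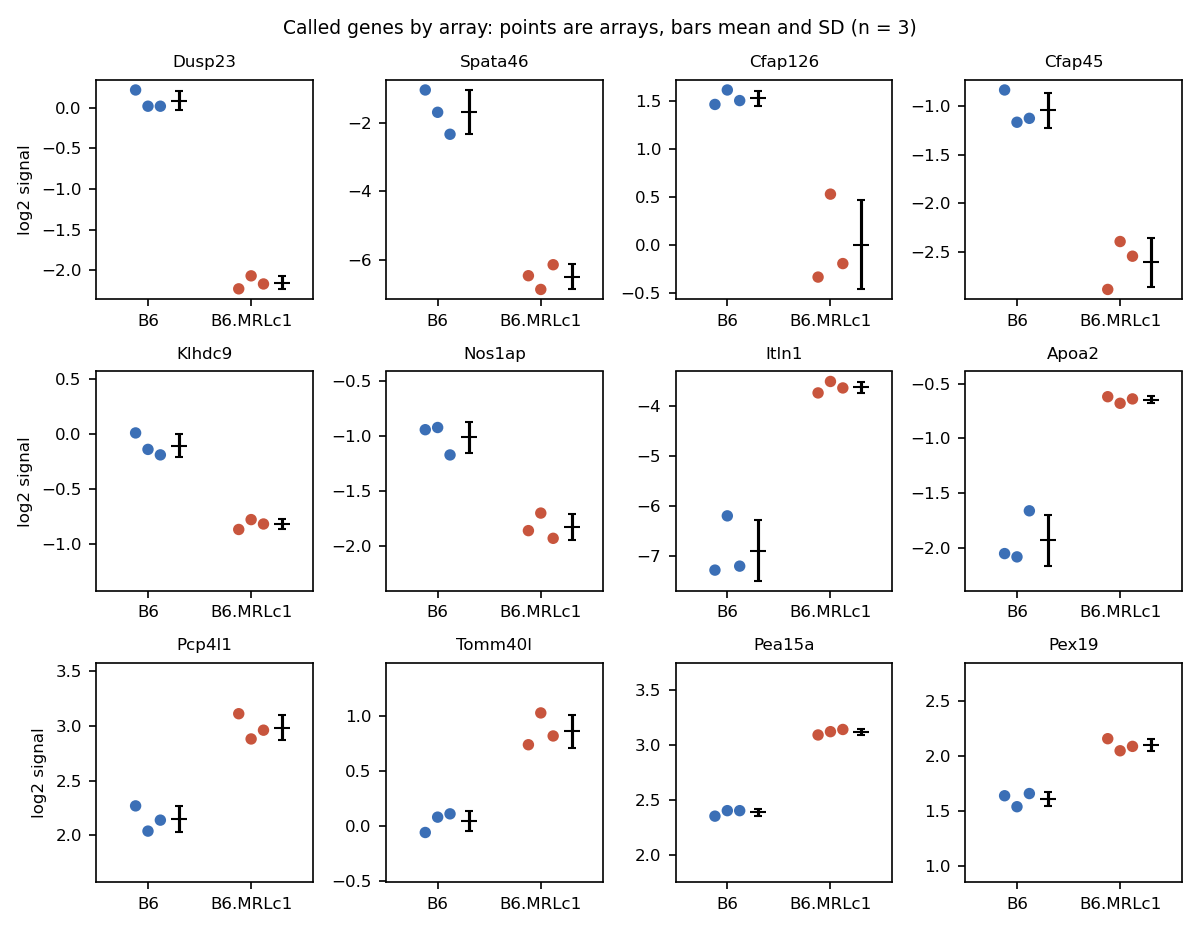
Log2 of signal over the 75th percentile of its array for 12 called genes, with B6 arrays in blue and B6.MRLc1 arrays in red, beside the mean and SD of 3 arrays; the vertical scale differs between panels. In each panel the groups do not overlap, with the first 6 genes lower and the last 6 higher in B6.MRLc1; Spata46 in B6.MRLc1 and Itln1 in B6 were not well above background.

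Among phosphatase and signalling genes, 10 of 12 were tested, 2 rose, 2 fell and the median over 15 probes was -0.32. Dusp23, a small dual specificity phosphatase, gave the smallest adjusted p of all members. It read 0.22, 0.02 and 0.02 on the B6 arrays and -2.23, -2.07 and -2.17 on the B6.MRLc1 arrays, at a well measured brightness in both. The strains were clearly apart on its only probe, which read 4.74-fold lower in B6.MRLc1, a log2 difference of -2.24 (SE 0.09, adjusted p = 0.00249). The MRL sequence under that probe was not analysed here. With normexp it was -1.86, and the call held without any one array. Of 12 tested dual specificity phosphatases encoded outside the span none was called by limma (2 at an unadjusted p under 0.05, 1 called with normexp), and their median was 0.18. Inside the span Dusp12, which has 2 tested probes, measured 0.43 (SE 0.08, adjusted p = 0.0718) and 0.13 (SE 0.05, adjusted p = 0.288).

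Nos1ap, an adaptor of neuronal nitric oxide synthase that lies next to Spata46, fell by 0.82 on the probe at chr1:172247741-172247800 (SE 0.10, adjusted p = 0.0314). That probe read -0.94, -0.92 and -1.17 in B6 and -1.86, -1.70 and -1.93 in B6.MRLc1, without overlap. Nos1ap's other probe measured a similar -0.70 (SE 0.15), which was not called (adjusted p = 0.0889). Pea15a, a small death effector domain protein that binds ERK, rose by 0.73 (SE 0.05, adjusted p = 0.0134). Its levels were 2.35, 2.40 and 2.40 in B6 against 3.09, 3.12 and 3.14 in B6.MRLc1, with little spread in either strain. Pcp4l1, a small protein related to the calmodulin regulator Pcp4, rose by 0.84 (SE 0.10, adjusted p = 0.0276), from 2.27, 2.04 and 2.14 to 3.11, 2.88 and 2.96. Nos1ap held its call only without B6 array 3 (0.0698 to 0.108 in the other 5 fits), Pcp4l1 in no fit with an array left out (0.0600 to 0.0865), and Pea15a in all but those without B6 array 1 or B6.MRLc1 array 2 (0.0558 and 0.0580).

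Other signalling members were not called. The collagen receptor kinase Ddr2 measured -0.83 (SE 0.18, adjusted p = 0.0938) on one probe, with each B6.MRLc1 array below each B6 array, and -0.32 on the other. The kinase Uhmk1 read -0.56 and 0.08 on its pair of probes (adjusted p = 0.157 and 0.479). Rgs4, a regulator of G protein signalling, read -0.35 and -0.36 (adjusted p = 0.340 and 0.524).

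Of the 9 genes for mitochondrial proteins and metabolic enzymes, all were tested, 2 rose and 1 fell, and the median over 15 probes was 0.14. Tomm40l, a relative of the mitochondrial import pore protein Tomm40, read -0.06, 0.08 and 0.11 in B6 and 0.74, 1.03 and 0.82 in B6.MRLc1. The groups were separate, and Tomm40l rose by 0.82 (SE 0.10, adjusted p = 0.0292). Pigm, the mannosyltransferase of an early step in making glycosylphosphatidylinositol anchors, rose by 0.75 (SE 0.09, adjusted p = 0.0277), from -1.47, -1.23 and -1.35 to -0.54, -0.68 and -0.59. Neither call was kept when any 1 array was left out, at adjusted p of 0.0574 to 0.103 for Tomm40l and 0.0552 to 0.0870 for Pigm, although the direction was the same throughout. B4galt3, the gene that fell, is described with the other probe pairs.

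Sdhc, the membrane anchor of respiratory complex II, measured -0.05 and -0.13 and was not called. Of 9 complex I and II subunits encoded elsewhere none was called by limma (0 at an unadjusted p under 0.05, 0 with normexp), with a median of 0.05. Hsd17b7, an enzyme of cholesterol and oestradiol synthesis, had 3 tested probes, at 0.01, 0.36 and 0.53, the largest with an adjusted p of 0.118. The sulphurtransferase domain gene Tstd1 measured 0.43 (adjusted p = 0.125) and Uap1, which makes UDP-N-acetylglucosamine, 0.12 (adjusted p = 0.358).

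Apoa2, a major apolipoprotein of high density lipoprotein, was higher in B6.MRLc1 on both probes, but by different amounts. The probe at chr1:173156320-173156379 read -2.05, -2.08 and -1.66 in B6 and -0.62, -0.68 and -0.64 in B6.MRLc1, and rose by 1.28 (SE 0.12, adjusted p = 0.0210). The probe at chr1:173156445-173156504 read 1.57, 1.61 and 1.63 against 1.98, 1.93 and 1.93, and rose by 0.34 (SE 0.05, adjusted p = 0.0492). Neither probe's groups overlapped. The gap between these differences was 0.94 (SE 0.12), which was not called over all probe pairs (adjusted p = 0.130; 0.0440 with normexp). The first probe held its call only without B6 array 3 (0.0519 to 0.0823 in the other 5 fits) and the second in none (0.0790 to 0.176). The second also lost its call with quantile normalization (adjusted p = 0.0582), a floor on dim values (0.0595) and the deposited series values (0.0542).

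The tested member probe named for Itln1, an intelectin that binds microbial glycans, was well above background only in B6.MRLc1 testes. Whether it binds Itln1 alone was not analysed here. The member probe read -7.29, -6.20 and -7.21 in B6, on no array well above background, and -3.73, -3.50 and -3.63 in B6.MRLc1, where all 3 arrays passed. Its B6.MRLc1 signal was at least 4.24-fold higher (adjusted p = 0.0195, or 0.00215 with a floor on dim values), with a difference of 0.90 under normexp. A second probe named Itln1 has no position in the annotation and is therefore no member. Its target was not analysed here, but it showed the same pattern. It read -7.78, -7.96 and -7.88 in B6 and -4.13, -4.15 and -4.24 in B6.MRLc1, at least 2.89-fold higher (adjusted p = 0.000116; 0.78 with normexp). Both probes were dim, since even the B6.MRLc1 levels lay far below the array's 75th percentile. The member probe lost its call without B6 array 1 or without B6.MRLc1 arrays 1 or 2 (adjusted p 0.0648 to 0.0719), while the unplaced probe held it in all 6 fits.

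The cell surface and matrix list had 9 of 12 genes tested, of which Itln1 rose, Adamts4 fell on 1 of its probes, and the median over 12 probes was -0.04. F11r, a tight junction adhesion molecule, read 3.96, 4.09 and 4.17 in B6 and 4.67, 4.45 and 4.61 in B6.MRLc1, a difference of 0.50 (SE 0.09) that was not called (adjusted p = 0.0605). Vangl2, a planar cell polarity protein, measured -0.47 (SE 0.08, adjusted p = 0.0584) on one probe and -0.04 on the other. The immunoglobulin superfamily genes Igsf9 and Igsf8 measured -0.38 and -0.26 at their largest (adjusted p = 0.151 and 0.341).

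Kcnj10, an inward rectifier potassium channel with 1 tested probe, measured 0.95 (SE 0.19, adjusted p = 0.0813), from -3.39, -3.74 and -4.16 in B6 to -2.85, -2.79 and -2.81 in B6.MRLc1. The groups did not overlap, but the difference was not called.

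Protein turnover, folding and traffic genes differed little. All 8 were tested, 1 rose, none fell, and the median over 10 probes was -0.01. Pex19, the import receptor for peroxisomal membrane proteins, read 1.64, 1.54 and 1.66 in B6 and 2.16, 2.05 and 2.09 in B6.MRLc1. Its groups did not overlap and it rose by 0.49 (SE 0.06, adjusted p = 0.0345), a call that was lost without any 1 array (0.0613 to 0.121). The other 7 genes lay between -0.36 and 0.25. They included the coat protein Copa at -0.36 and -0.25 (adjusted p = 0.0885 and 0.113), the deubiquitinase Usp21 at 0.25 (adjusted p = 0.146), the prefoldin subunit Pfdn2 at -0.10 and the gamma-secretase subunit Ncstn at 0.11. Atf6, a sensor of the unfolded protein response, measured -0.06 (SE 0.08). Of 10 unfolded protein response genes outside the span none was called (1 at an unadjusted p under 0.05, 0 with normexp), and their median was 0.06.

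Transcription regulators were not called either. None of 5 genes passed on 9 probes by limma, although 5 probes had an unadjusted p under 0.05 and 1 was called with normexp, and the list's median was 0.23. Dedd, a death effector domain protein of the nucleus, came closest, with -1.80, -1.67 and -1.90 in B6 and -1.35, -1.30 and -1.25 in B6.MRLc1. These groups were apart, but the difference of 0.49 (SE 0.08) missed the threshold (adjusted p = 0.0518). The E-box factor Usf1 measured 0.34 (adjusted p = 0.250) and the neuronal helix-loop-helix gene Nhlh1 -0.22 and 0.23 (adjusted p = 0.221 and 0.371).

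**Figure D3:**
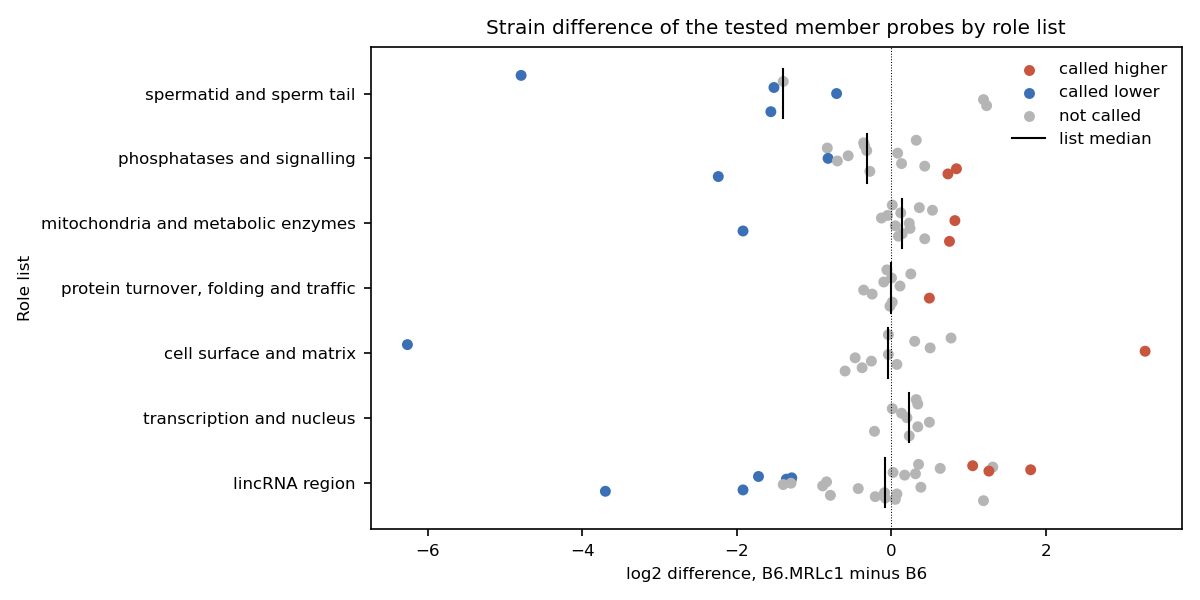
Log2 difference (B6.MRLc1 minus B6) of the tested member probes in 7 role lists; red was called higher, blue called lower and grey not called, and black lines are list medians. The spermatid and sperm tail list has the lowest median, -1.40, and the transcription list has no called probe.

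In several genes one probe changed and another did not. Of 30 member genes with more than 1 tested probe, 12 had a called probe, and in 2 every tested probe was called. Another 48 genes had 1 tested probe, 11 of them called, with Dusp23 and Spata46 among these, and allow no such comparison. To compare probes, limma was run on the difference between 2 probes of a gene within each array, a test chosen after the values had been seen. Of 64 member pairs 5 were called unequal, or 7.81%, against 8 of 18637 pairs on the whole array, or 0.0429%. A further called pair was that of Nuf2, which lies in the span and was left out by the member rule, and the last 2 were lincRNA regions of other chromosomes.

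Adamts4, a secreted protease that cleaves aggrecan, showed the widest gap. Probe 1 read -2.40, -2.45 and -3.05 in B6 and -2.36, -2.24 and -2.39 in B6.MRLc1, a difference of 0.30 (SE 0.18, adjusted p = 0.429). Probe 2, with 697 bases between them, read -0.25, -0.22 and -0.83 in B6 and -6.70, -7.19 and -6.18 in B6.MRLc1. It was thus bright in B6 while no B6.MRLc1 array had it well above background. There it was at least 22.7-fold lower (adjusted p = 0.00483, or 0.00658 with a floor on dim values). The gap between the probes' differences is therefore only bounded too. It was 4.80 with dim values raised to the lowest signal well above background and 3.12 with normexp, and it was called on the processed signal (adjusted p = 0.00769 over all pairs).

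B4galt3, a Golgi galactosyltransferase, showed the same over a shorter distance, with 39 bases between its probes. Probe 1 read 4.18, 4.45 and 4.55 in B6 and 4.60, 4.61 and 4.68 in B6.MRLc1, a difference of 0.24 (SE 0.11, adjusted p = 0.304). Probe 2 read 4.76, 5.01 and 5.22 in B6 and 3.02, 3.07 and 3.13 in B6.MRLc1, and fell by 1.92 (SE 0.12, adjusted p = 0.00963). Both were among the bright probes of these arrays, so background did not limit either value. The gap was 2.16 (SE 0.07, adjusted p = 0.00231), and 2.12 with normexp.

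Tagln2, an actin-binding protein of the transgelin family, overlapped between strains on probe 1, at -0.02, -0.14 and -0.56 in B6 and -0.13, -0.20 and -0.39 in B6.MRLc1 (0.01, SE 0.16, adjusted p = 0.988). Probe 2 read 3.77, 3.60 and 3.27 in B6 and 2.31, 2.40 and 2.23 in B6.MRLc1 and fell by 1.24 (SE 0.14, adjusted p = 0.0271). The gap was 1.24 (SE 0.08, adjusted p = 0.0336). In Adamts4, B4galt3 and Tagln2 the probe that fell was the second in genome order. Which probe was read thus decided whether each of the 3 genes was called. The single-probe calls of Adamts4 and B4galt3 held without any one array, and that of Tagln2 only without B6 array 3 (0.0664 to 0.0935 in the other 5 fits).

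The pair calls were less stable. With 1 array left out, B4galt3 kept an unequal pair in 4 of 6 fits, and its adjusted p was 0.0542 and 0.0565 without B6 array 1 or 2. Adamts4 kept one without B6.MRLc1 array 2 or 3, with adjusted p of 0.0647 to 0.156 without the other arrays. Tagln2 kept none (0.0891 to 0.333). A called pair of a lincRNA region in the Ifi200 cluster (adjusted p = 0.0416) rested on a probe with no B6.MRLc1 array well above background, so its gap is only bounded. The gap was 1.81 with dim values raised to the same floor and 0.55 with normexp, and the call was kept only without B6.MRLc1 array 3 (0.118 to 0.333 otherwise).

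**Figure D4:**
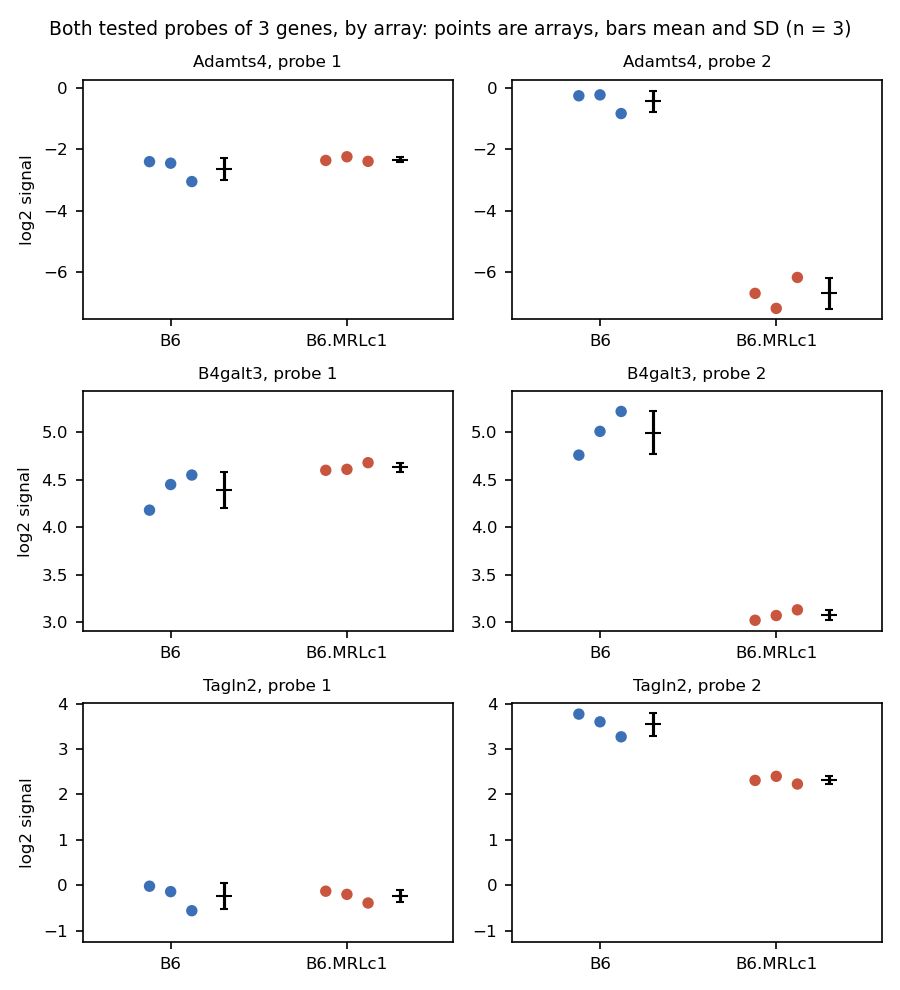
Log2 of signal over the 75th percentile of its array for both tested probes of Adamts4, B4galt3 and Tagln2, with B6 arrays in blue, B6.MRLc1 arrays in red and the mean and SD of 3 arrays beside them; both panels of a gene share one vertical scale. Probe 2 lies lower in all 3 B6.MRLc1 arrays for each gene, while probe 1 was not called for any of them.

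The array also carried probes for 13 lincRNA regions, long intergenic transcripts named by their coordinates and read in forward and reverse direction, of which 12 were tested on 28 probes. In total, 2 regions rose and 3 fell, and the median was -0.08. Between the probes of Ufc1 and Nit1, the reverse probe of the region chr1:173254292-173257445 read -1.93, -1.81 and -1.76 in B6 and -0.61, -0.46 and -0.65 in B6.MRLc1. This probe was well above background throughout, and rose by 1.26 (SE 0.08, adjusted p = 0.00933) in a call that held without any one array. The overlapping region chr1:173250734-173259306 had 4 tested reverse probes, all higher in each B6.MRLc1 array than in any B6 array. They differed by 1.05, 1.80, 1.31 and 0.63, the first 2 of which were called (adjusted p = 0.0406 and 0.0231), and these are much of 1 measurement since the regions overlap. Its forward probe measured 0.02. The call at 1.05 was lost without any 1 array (0.0521 to 0.118), and that at 1.80 without any B6.MRLc1 array (0.0577 to 0.0751).

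Some members lay within the Ifi200 cluster of interferon-inducible DNA sensors, because the files give them other names than the member rule lists. Inside the cluster, from 175396036 to 175893982, 25 of 43 members were tested, 7 fell and none rose (2 higher at an unadjusted p under 0.05), with a median of -0.89. Without them, 96 members remained tested, 11 higher and 10 lower, or 21.9% called, with a median of 0.05. RefSeq names the file's Pydc3 as Ifi208 and its AI607873 as Ifi207. Ifi208 read -1.54, -1.33 and -1.95 in B6 and -2.71, -2.62 and -2.68 in B6.MRLc1 and fell by 1.06 on one probe (SE 0.16, adjusted p = 0.0451), while its other probe measured -0.20 (adjusted p = 0.161). Ifi207 measured -1.03 and -1.0 without a call (adjusted p = 0.0896 and 0.0936).

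The lincRNA regions that overlap Ifi207 were lower as well, and 1 of their probes has the same coordinates as an Ifi207 probe. At that position, chr1:175653663-175653722, the lincRNA probe measured -1.72 and was called (adjusted p = 0.0262). The Ifi207 probe there measured -1.03 and was not (adjusted p = 0.0896). Why probes at the same coordinates differed was not tested. Of 11 tested reverse probes of the regions chr1:175653557-175671940, chr1:175654606-175672031 and chr1:175660642-175671878, all measured below 0, from -3.70 to -0.43, and 6 were called. The largest, at chr1:175666386-175666445, read -2.43, -2.75 and -2.90 in B6 and had no B6.MRLc1 array well above background, at least 4.73-fold lower (adjusted p = 0.0126; -0.92 with normexp). Signal of Ifi207 and of these regions cannot be told apart by such probes. The B6.MRLc1 arrays were close to each other on most of these probes and B6 array 3 was the lowest of the B6 arrays. The Ifi208 call and 4 of the lincRNA calls held only without B6 array 3 (Ifi208 at 0.105 to 0.144 and the lincRNA probes at 0.0610 to 0.147 in the other fits). The Ifi208 call was also lost with quantile normalization (adjusted p = 0.0517), array median scaling (0.0501) and a floor on dim values (0.0510). The lincRNA probe at -1.29 lost its call with quantile normalization (0.0521) and the floor (0.0501). The largest was lost without B6 array 1 (0.0584), and its neighbour, at -1.92, without B6 arrays 1 or 2 or B6.MRLc1 array 2 (0.0537 to 0.0629) and with the deposited series values (0.0672).

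The genes of the same span that the member rule left out are immune genes and others such as Nuf2. Of their 39 probes 28 were tested, with 3 higher, 5 lower and a median of -0.53. By comparison, the members outside the Ifi200 cluster had a median near 0 and calls split evenly between directions. The difference between these sets was not tested.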

How the data were processed

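Total RNA of the 6 testis samples was labelled with Cy3 and hybridised to one-colour Agilent arrays, per the labels' protocols. The authors deposited scanner tables of linear intensity, whose processed column had background subtracted and a spatial trend removed, per the file headers. Feature Extraction 10.7.3.1 stands in the file headers and 9.5.3 in the submitters' processing notes, and which made the values is unknown. The deposited series table holds log2 values and was used as an alternative. The deposited files also hold flag columns, per the file headers, used to drop outlier spots and to mark spots well above background.

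Signals were divided by each array's 75th percentile, log2 was taken and spots of a probe were averaged. Tested probes had a value on 4 or more arrays and, on 3 or more, over 0.5 of spots well above background. All 36626 such probes were fitted by strain with limma 3.58.1 under R 4.3.3 (lmFit, eBayes), tested on simulated data beforehand, with Benjamini-Hochberg adjustment. The text names called members and up to 4 uncalled genes per role list with the smallest adjusted p; some items are not reported here. Names came from RefSeq (GRCm38.p6) by accession for 27235 probes, by symbol for 3581, and from the files for 24865; positions are mm9 in the files. Probe sequences are the files' own. Members and lists were chosen with earlier results of these data known. Alternatives covered background, scaling, filters, variance model, pairing and each array left out.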

Additional observations from a re-analysis of the deposited data

How the results depend on the processing

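No call among the 28 changed direction under any setting that could be run. Normexp called 1000 probes across the array (301 higher) against 665, and 19 members higher and 25 lower; no filter on dim probes gave 55 across the array, 1 member higher, 6 lower and 7 genes; a floor on dim values 413 across the array; an intensity trend 1388, with 18 members higher and 26 lower; array weights 4541, with 26 higher, 33 lower and 41 genes; the deposited series values 431 (118 higher); 1 probe per gene 8 members lower; and without the Ifi200 cluster 10 members were lower. With 1 array left out, calls ran from 45 to 367 across the array, from 1 to 5 members higher, from 5 to 22 lower and from 7 to 20 genes. Same-numbered arrays deviated together weakly (r = -0.03, 0.14 and 0.09). With 3 arrays per strain, these values cannot decide whether the numbers pair the samples. With the replicate block limma called 2 probes across the array and 0 members, so 0 higher, 0 lower and 0 genes, although 66 members had an unadjusted p under 0.05. Unequal member pairs numbered 9 with normexp, 3 for probes well above background on all 6 arrays, 0 with the replicate block (30 at an unadjusted p under 0.05) and 0 to 3 with 1 array left out. Leaving out the Ifi200 cluster and the pair test were both chosen after seeing the data. The cause of these shifts was not tested. Signal over background limits Spata46, Itln1, Adamts4 probe 2 and the largest lincRNA difference to bounds, and 3 arrays per strain limit the precision of every value.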
